A study of Mus musculus with 10 samples.

Results

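The genes described here encode the nuclear subunits of the 5 complexes of oxidative phosphorylation, apart from the pseudogene Atp5l2-ps, counted in complex V. They were measured in the liver of mice with 1 inactivated copy of Tgfbr2 and of wild-type littermates. They were taken by name: symbols of the array platform that begin with Nduf, Uqcr, Atp5 or Cox4 to Cox8, and Sdha to Sdhd, leaving out the assembly factors Ndufaf and Sdhaf. This gave 74 genes of the 16383 with a symbol on the array, measured by 85 probes, of which 10 genes had more than 1 probe. Complex I contributed 34 genes, complex II 3, complex III 7, complex IV 17 and complex V 13. No filter on low values was applied, so all 74 genes were tested. Sdhd, Atp5a1, Atp5b, Cox7b2 and Ndufa4l2 were not analysed here, nor were the subunits encoded by mitochondrial DNA.

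The data hold 10 two-colour array libraries, 6 of heterozygous Tgfbr2+/- mice and 4 of wild-type littermates, all on a chow diet and each hybridised against the same reference, liver RNA pooled from 6 wild-type mice. Tgfbr2 encodes the type II receptor for TGF-beta. The Tgfbr2+/- mice are titled as males and no sex is given for wild type, so sex cannot be told apart from genotype where the wild-type mice include females. Strain, age and the design of the inactivated allele are not given in the sources used here. Each value is a log2 ratio over the pool, likely sample over pool. The titles name the pool first, and the Tgfbr2 probe described next was also used to settle on that direction; every sign below turns if the ratios run the other way.

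Over all genes, library medians lay between 0.0033 and 0.017 on the log2 scale, and the number of arrays limits the precision. A probe of Tgfbr2 (10024401828) had a mean of -0.70 ± 0.48 (SD, n = 6) in the Tgfbr2+/- libraries and 0.17 ± 0.43 (SD, n = 4) in the wild-type libraries. The library labelled Tgfbr2+/- replicate 4 stood at 0.20, among the wild-type values, which ran from -0.29 to 0.64. This value goes against the label. The other Tgfbr2 probe (10024408236) differed by -0.070 between the groups. There the same library stood at -0.10, below the wild-type values of 0.040 to 0.23. Its median of the Kupffer cell and macrophage markers, described below, was 0.26, against -0.21 to -0.12 in wild type. Whether its label is right was not tested, nor was where either probe lies relative to the inactivated part of the gene. Wild-type replicate 1 and Tgfbr2+/- replicate 5 correlated at r = -0.325 over all probes, which does not settle the direction of either column. As deposited, probe 10024401828 stood at 0.42 and -0.86 in these libraries. Their medians of the Kupffer cell and macrophage markers were -0.20 and 0.19, each within the range of the other libraries of its group. Multiplied by -1, each would lie outside that range, and so would any other library outside the range of its group. These medians ran from -0.21 to -0.12 in wild type and from 0.0093 to 0.26 in Tgfbr2+/-, so this does not settle the direction. The direction was not tested, and the comparisons are also given with either column multiplied by -1, called turned below. The defining hepatocyte marker Alb, which encodes albumin, lay between -0.26 and 0.12 over the pool in the wild-type and between -0.22 and 0.27 in the Tgfbr2+/- libraries. Ratios against a liver pool cannot show a marker's absolute level.

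Oxidative phosphorylation takes electrons from NADH through complex I and from succinate through complex II to ubiquinone, passes them through complex III and cytochrome c to complex IV, where oxygen is reduced, and uses the resulting proton gradient to make ATP in complex V. Complexes I, III, IV and V join nuclear-encoded subunits to others made inside the mitochondrion, whereas complex II is entirely nuclear. Hepatocytes are rich in mitochondria and depend on this system for gluconeogenesis, urea synthesis and fatty acid oxidation. In bulk liver RNA, fewer cells of a type and less RNA per cell cannot be told apart.

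The promoters of these genes are known for binding sites of NRF1, of ETS factors such as GABPA and of YY1. RefSeq promoter windows of assembly GRCm38.p6, 250 bases before to 50 bases after each start, matched 60 of the 74 genes in 65 windows. The stretches below run 5′ to 3′ from 130 bases before to 20 bases after the start, and all lie on the minus strand. They are shown, 1 gene per complex, to give the setting in which the letters searched for do or do not occur, and were chosen after the values were seen. Capitals mark TGCGCA (the core of the NRF1 site), CCGGAAG (an ETS site), AAGATGG (YY1) or CCAAT (NF-Y), on either strand, so that CTTCCGG and CCATCTT are the reverse complements of CCGGAAG and AAGATGG. Ndufa6 (complex I) is taken from chr15:82354272-82354421, Sdha (complex II) from chr13:74350221-74350370, Uqcrfs1 (complex III) from chr13:30545297-30545446, Cox7c (complex IV) from chr13:86046776-86046925 and Atp5md (complex V) from chr19:47090628-47090777.
Ndufa6: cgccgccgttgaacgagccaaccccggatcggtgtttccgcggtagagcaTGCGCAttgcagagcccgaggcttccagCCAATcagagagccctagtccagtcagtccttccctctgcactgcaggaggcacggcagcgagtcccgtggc
Sdha: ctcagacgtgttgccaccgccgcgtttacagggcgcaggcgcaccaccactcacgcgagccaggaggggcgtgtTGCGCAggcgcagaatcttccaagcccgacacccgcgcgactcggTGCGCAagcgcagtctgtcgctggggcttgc
Uqcrfs1: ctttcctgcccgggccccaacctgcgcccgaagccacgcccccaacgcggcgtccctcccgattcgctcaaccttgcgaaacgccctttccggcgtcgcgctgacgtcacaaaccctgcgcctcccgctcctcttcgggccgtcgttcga
Cox7c: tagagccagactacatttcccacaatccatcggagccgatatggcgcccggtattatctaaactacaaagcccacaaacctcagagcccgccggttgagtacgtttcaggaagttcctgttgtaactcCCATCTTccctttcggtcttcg
Atp5md: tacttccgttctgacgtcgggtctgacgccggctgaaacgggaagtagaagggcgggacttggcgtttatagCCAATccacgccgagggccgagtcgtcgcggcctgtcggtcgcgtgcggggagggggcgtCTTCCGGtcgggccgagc
The Sdha stretch holds TGCGCA at 2 places, the Ndufa6 stretch holds it once together with CCAAT, and the Uqcrfs1 stretch holds none of the letters searched.

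Searched over whole windows on both strands, TGCGCA was found in 15 of the 60 matched genes (25%), against 8.79% of all 27025 genes with windows of the same length. CCGGAAG was found in 14 (23.3%, against 9.93% of all genes) and AAGATGG in 11 (18.3%, against 7.28%). At least 1 of these 3 motifs was present in 33 of the 60 (55%), against 22.8% of all genes. CCAAT, in 25 (41.7%, against 41.1%), and AAGGTCA, a site of ESRRA and other nuclear receptors, in 3 (5%, against 5.38%), stood at the share of all genes. A match describes letters in the window and not a bound site. The 33 genes with any of the first 3 motifs had a median difference between the groups of -0.051, and the 27 without had -0.043.

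The comparison of Tgfbr2+/- with wild type asks whether these genes differ in liver when a copy of Tgfbr2 is lost. None of the 74 genes passed the test after adjustment over all genes, and neither did any of the 16383 genes (0.0%; limma, adjusted p threshold 0.05). Differences are Tgfbr2+/- minus wild type on the log2 scale, with the standard error (SE) of the limma fit. The differences were small and mostly of the same sign: 62 of the 74 were below 0, against 47.4% of all genes. Their median was -0.050, against 0.0044 for all genes. Without the pseudogene and the tissue-restricted isoforms of complex IV described below, 58 of 67 were below 0, with a median of -0.050. The standard error of a single gene's difference had a median of 0.071, which is not the standard error of a median over the 74 genes. At an unadjusted limma p under 0.05, 1 of the 74 genes was lower and 0 were higher, against 2.57% and 2.97% of all genes, which is no more than the background. In none of the 74 genes were all 6 Tgfbr2+/- libraries below or all above the 4 wild-type libraries, against 0.354% and 0.726% of all genes. In the exact permutation test of the same values the smallest p of any of the 26 genes named here was 0.052, for Ndufs1, where the smallest that 4 against 6 libraries allow is 0.0048. The smallest exact p of the 74 genes after adjustment over all genes was 0.940.

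The size of the median difference depended on single libraries. Without Tgfbr2+/- replicate 5 the median was -0.017 with 52 genes below 0, and without wild-type replicate 1 it was -0.029 with 59 below 0. Without Tgfbr2+/- replicates 5 and 6 together, a setting chosen after seeing the data, it was -0.0034 with 41 below 0. By complex, the medians without Tgfbr2+/- replicate 5 were -0.019, -0.049, 0.0011, -0.023 and -0.0078 for complexes I to V. Without wild-type replicate 1 they were -0.025, -0.066, -0.041, -0.056 and -0.023. Leaving out the library labelled Tgfbr2+/- replicate 4 gave -0.064 with 60 below 0. Turning wild-type replicate 1 gave a median of -0.014 with 46 below 0, and turning Tgfbr2+/- replicate 5 gave 0.0064 with 29 below 0. Of the named genes, Uqcr11 changed sign with either column turned. Ndufv1, Ndufa9, Uqcrc1, Cox4i1, Cox5b, Cox8c, Atp5c1, Atp5h and Atp5o did so with Tgfbr2+/- replicate 5 turned, and no member passed the adjusted threshold in either case.

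**Figure D1:**
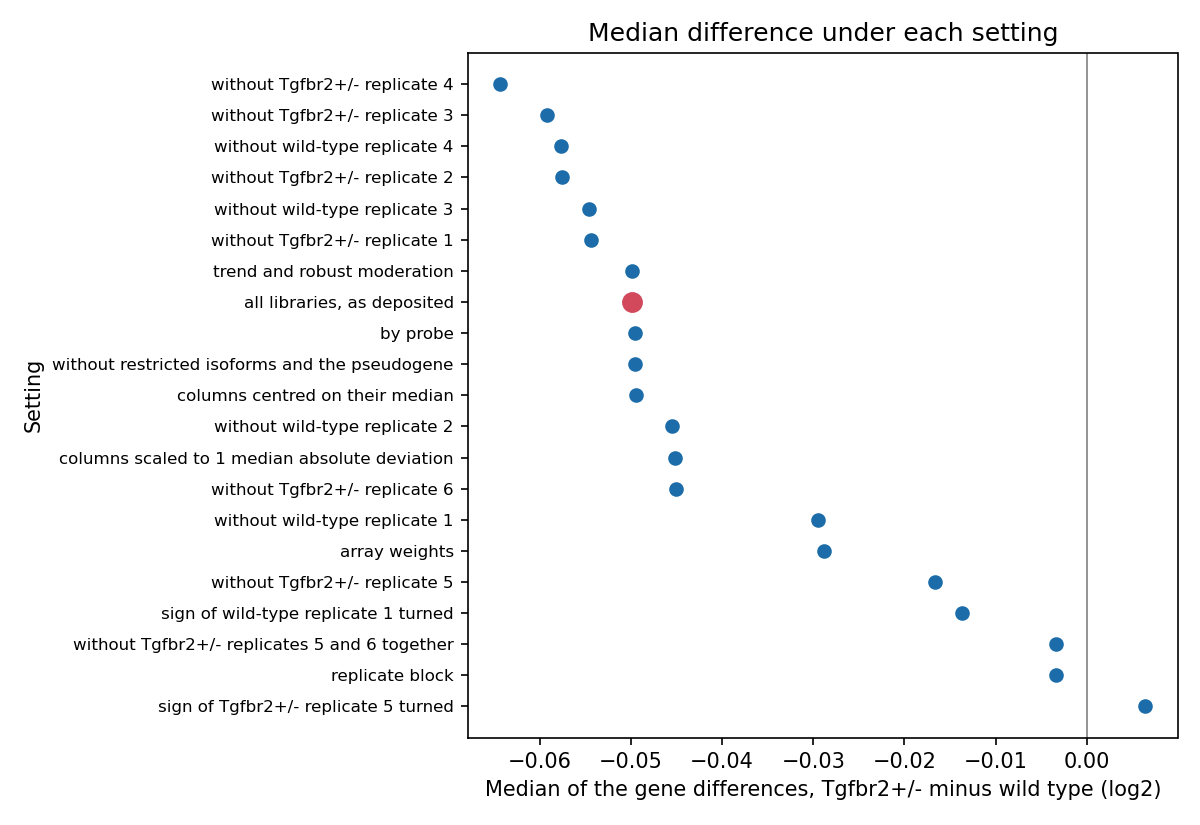
Median over the 74 genes of the difference Tgfbr2+/- minus wild type (x axis, log2) under each setting (y axis), with all libraries as deposited in red. The medians run from -0.064 without the library labelled Tgfbr2+/- replicate 4 to 0.0064 with the sign of Tgfbr2+/- replicate 5 turned, the only setting above 0.

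The shift of these genes differed between single mice. The median over the 74 genes was 0.070, 0.032, 0.015 and 0.038 in wild-type replicates 1 to 4. In Tgfbr2+/- replicates 1, 2 and 3 it was 0.033, 0.039 and 0.036, in the library labelled replicate 4 0.080, and in replicates 5 and 6 -0.17 and -0.055. The groups overlapped: replicates 1, 2 and 3 lay inside the wild-type range, the library labelled replicate 4 above it and replicates 5 and 6 below it. The mean of the library medians was 0.039 ± 0.023 (SD, n = 4) in wild type and -0.0060 ± 0.091 (SD, n = 6) in Tgfbr2+/-.

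Tgfbr2+/- replicate 5 held the lowest value of the 10 libraries in 44 of the 74 genes, against 18.3% of all genes, and the highest in 2, against 17.0%. Replicate 6 held the lowest in 11, against 15.6% of all genes. The library labelled Tgfbr2+/- replicate 4 held the highest value in 19 genes, against 10.5%, and wild-type replicate 1 in 13, against 8.78%. In replicate 5, 64 of the 74 genes lay below the pool, against 46.9% of all genes in that library, and in replicate 6, 46 did, against 46.8%. In wild-type replicate 1 only 10 lay below the pool, against 48.4%. Replicate 5 also had the widest spread of all genes, with a median absolute deviation of 0.157 on the log2 scale, against 0.0714 to 0.148 in the other 9 libraries. Its part in the low values was not tested.

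**Figure D2:**
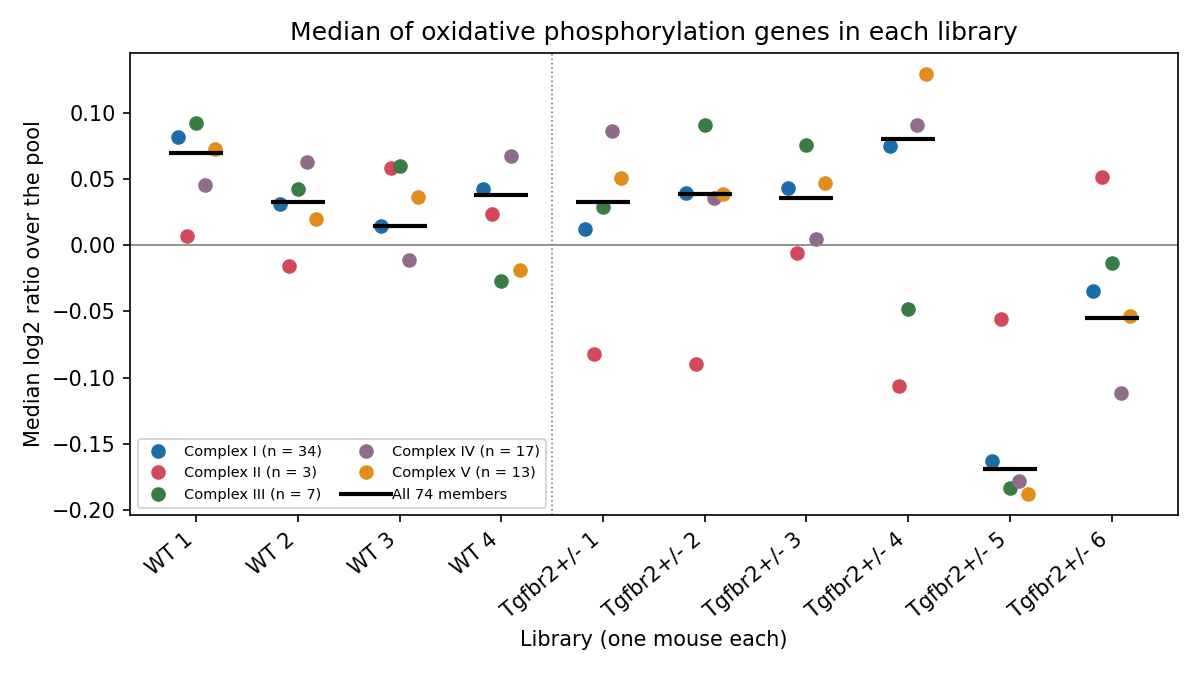
Median log2 ratio over the pool (y axis) of the genes of each complex (coloured points) and of all 74 genes (black bars) in each library (x axis). In Tgfbr2+/- replicate 5 the 74 genes have a median of -0.17 and all complexes lie below 0, whereas in the library labelled replicate 4 complexes I, IV and V lie above 0 and complexes II and III below.

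**Figure D3:**
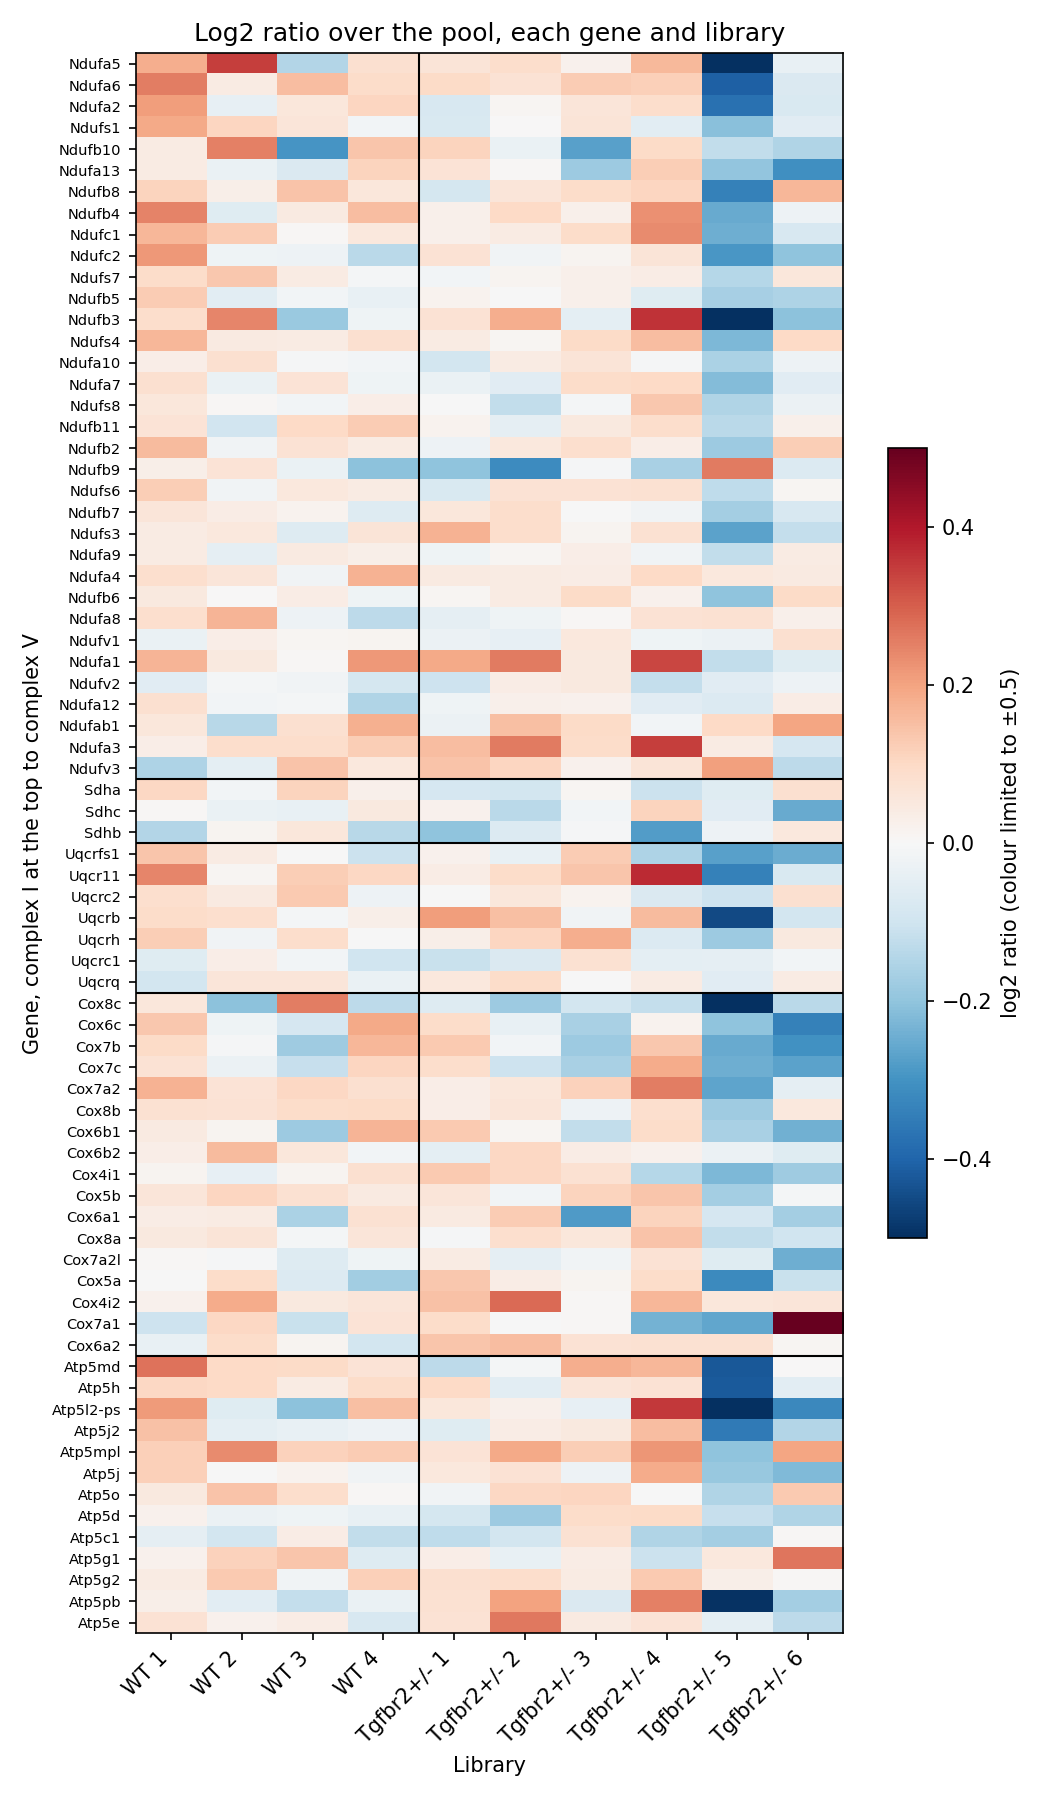
Log2 ratio over the pool of each of the 74 genes (rows, ordered by complex and then by difference) in each library (columns), with colour limited to 0.5 on either side of 0. The column of Tgfbr2+/- replicate 5 lies below 0 in 64 of the 74 rows and that of wild-type replicate 1 in 10.

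The complexes did not all follow each other. In Tgfbr2+/- replicate 5 the medians of complexes I, III, IV and V were -0.16, -0.18, -0.18 and -0.19, and that of complex II was -0.055. In replicate 6 complex IV had the lowest median, -0.11, while that of complex II was 0.052. In the library labelled replicate 4, complex V was at 0.13 and complex II at -0.11. The 12 core subunits of complexes I to III had a median SD over the 10 libraries of 0.082, against 0.114 for the 28 supernumerary subunits of complex I, 0.139 for the 11 complex IV genes other than restricted isoforms and 0.107 for all genes. The genes with the widest SD were Cox8c, at 0.271, and the pseudogene Atp5l2-ps, at 0.267, and the gene with the narrowest was Ndufv1, at 0.0414.

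Complex I oxidises NADH in a peripheral arm and pumps protons in a membrane arm. The differences of its 34 genes had a median of -0.050, with 29 below 0. The median was -0.0095 with wild-type replicate 1 turned and 0.0061 with Tgfbr2+/- replicate 5 turned. In the data as deposited 1 gene passed an unadjusted limma p under 0.05. That gene was Ndufs1, the largest iron-sulfur subunit of the electron input module. Its log2 ratios were 0.19, 0.11, 0.059 and -0.015 in wild-type replicates 1 to 4 and ran from -0.21 to 0.065 (median -0.055) in the Tgfbr2+/- libraries. Wild-type replicate 1 was the highest and Tgfbr2+/- replicate 5 the lowest, and the groups overlapped. The difference was -0.14 ± 0.059 (SE), a level 1.10-fold lower, with a limma p of 0.038 and an adjusted p of 0.874. It was -0.11 without Tgfbr2+/- replicate 5, -0.045 with wild-type replicate 1 turned and -0.070 with Tgfbr2+/- replicate 5 turned.

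Ndufv1, the flavin subunit that oxidises NADH and the direct partner of Ndufs1 in electron entry, differed by -0.0033 ± 0.041. Its ratios were -0.034, 0.032, 0.011 and 0.012 in the wild-type libraries and ran from -0.041 to 0.080 (median -0.026) in the Tgfbr2+/- libraries, and its SD over the 10 libraries was the narrowest of the 74 genes. Ndufa9, a supernumerary subunit near the ubiquinone site, had 0.041, -0.046, 0.044 and 0.031 in the wild-type and ran from -0.12 to 0.042 (median -0.0032) in the Tgfbr2+/- libraries, with a difference of -0.030 ± 0.044. For both genes the difference was smaller than its standard error. The 6 core subunits measured (Ndufs1, Ndufs3, Ndufs7, Ndufs8, Ndufv1 and Ndufv2) had a median difference of -0.041, and the 28 supernumerary genes -0.050.

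Ndufa2 and Ndufa6 are supernumerary subunits of the peripheral arm, and the Ndufa6 promoter is printed above. The ratios of Ndufa2 were 0.21, -0.040, 0.055 and 0.11 in wild type and ran from -0.37 to 0.087 (median -0.033) in Tgfbr2+/-. Those of Ndufa6 were 0.26, 0.040, 0.15 and 0.091 in wild type and ran from -0.41 to 0.13 (median 0.084) in Tgfbr2+/-. In both genes Tgfbr2+/- replicate 5 stood apart at the bottom and replicate 6 also lay below all wild-type values, as did replicate 1 for Ndufa2. The differences of -0.14 ± 0.087 and -0.15 ± 0.10 became -0.082 and -0.067 without that library. Ndufa5 had the largest negative difference of complex I, -0.15 ± 0.13, with replicate 5 at -0.53. Ndufb9 ran the other way in the same library, at 0.26, the highest of its 10 values. Ndufa5 and Ndufb9 were chosen after their values were seen.

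**Figure D4:**
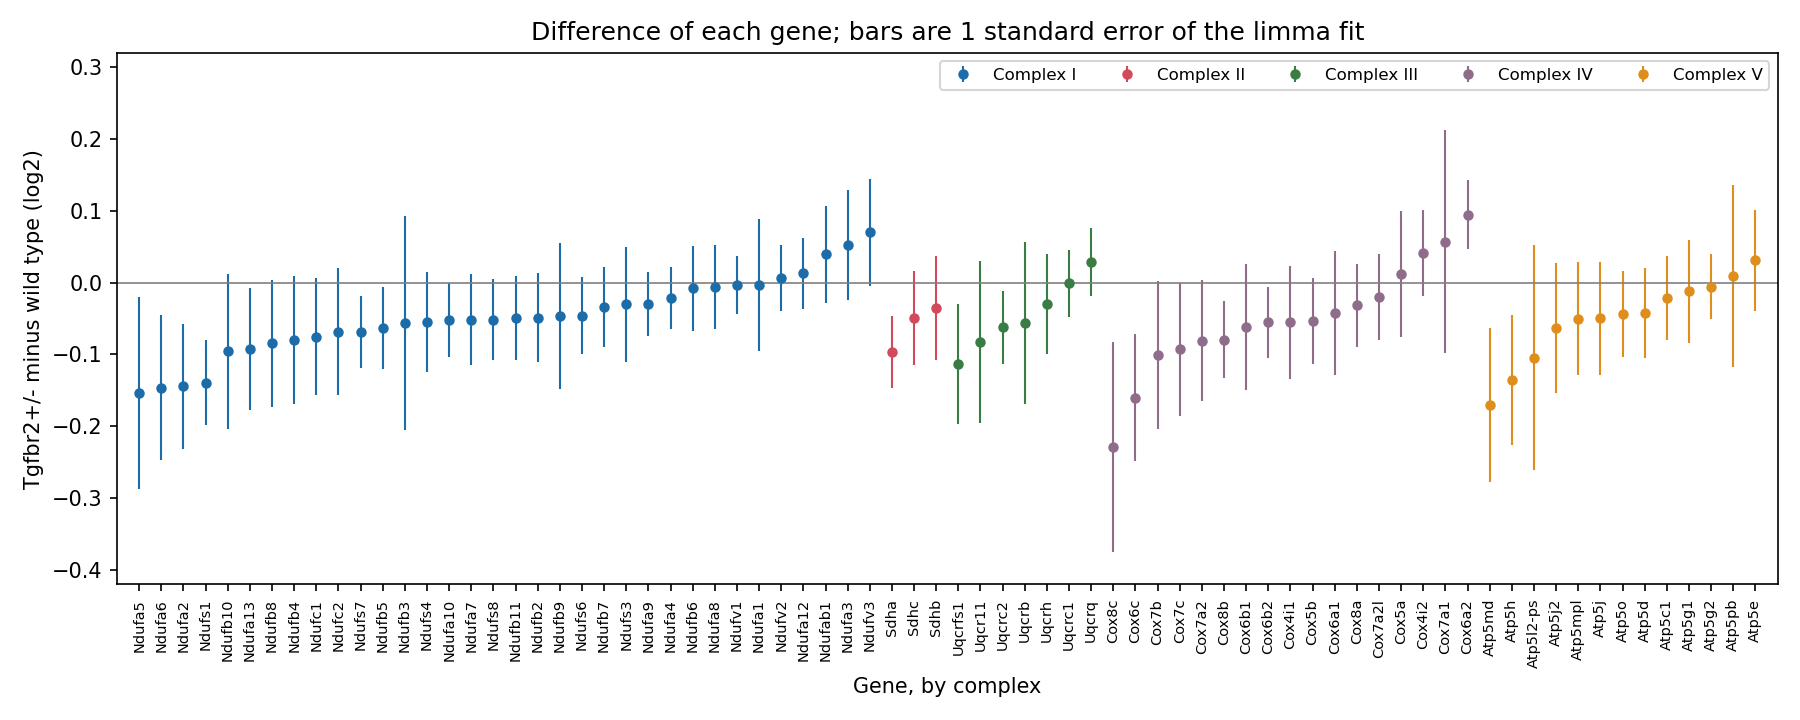
Difference Tgfbr2+/- minus wild type on the log2 scale (y axis) of each of the 74 genes (x axis, by complex and then by size), with bars of 1 standard error from the limma fit. The points run from -0.23 for Cox8c to 0.094 for Cox6a2, and 62 of the 74 lie below 0.

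Complex II, succinate dehydrogenase, is both an enzyme of the tricarboxylic acid cycle and an entry point to the respiratory chain. All 3 genes measured had differences below 0, with a median of -0.050. They stayed below 0 in the median with either column turned, at -0.046 for wild-type replicate 1 and -0.031 for Tgfbr2+/- replicate 5. Sdha, the flavin subunit that oxidises succinate, had ratios of 0.10, -0.016, 0.11 and 0.024 in wild type and ran from -0.11 to 0.080 (median -0.071) in Tgfbr2+/-. The lowest of its libraries was that labelled Tgfbr2+/- replicate 4, and replicates 3 and 6 lay within the wild-type range. Its difference was -0.097 ± 0.050, with a limma p of 0.079 and an adjusted p of 0.917, and -0.093 without Tgfbr2+/- replicate 5.

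Sdhb, the iron-sulfur subunit, had ratios of -0.15, 0.013, 0.058 and -0.14 in wild type and ran from -0.28 to 0.052 (median -0.048) in Tgfbr2+/-, with a difference of -0.035 ± 0.073. Sdhc, a membrane anchor that binds ubiquinone, had 0.0070, -0.035, -0.038 and 0.049 in wild type and ran from -0.25 to 0.11 (median -0.035) in Tgfbr2+/-, with a difference of -0.050 ± 0.066. The lowest library was that labelled Tgfbr2+/- replicate 4 for Sdhb and replicate 6 for Sdhc, and the groups overlapped in both genes.

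Complex III passes electrons from ubiquinol to cytochrome c. Of its 7 genes 6 had differences below 0, with a median of -0.056, which became 0.031 with Tgfbr2+/- replicate 5 turned and -0.017 with wild-type replicate 1 turned. Uqcrfs1, the Rieske iron-sulfur protein, had ratios of 0.14, 0.043, -0.0010 and -0.11 in wild type and ran from -0.27 to 0.13 (median -0.097) in Tgfbr2+/-. Its difference was -0.11 ± 0.084, with overlapping groups and the lowest values in replicates 5 and 6. The core proteins Uqcrc1 and Uqcrc2, which face the matrix, differed by -0.0010 ± 0.047 and -0.062 ± 0.051. Uqcrc1 ran from -0.10 to 0.033 in wild type and from -0.11 to 0.076 in Tgfbr2+/-. Uqcrc2 had 0.083, 0.045, 0.13 and -0.027 in wild type and ran from -0.10 to 0.079 (median 0.0082) in Tgfbr2+/-, and both of its probes gave differences below 0.

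Uqcr11, a small membrane subunit, had the widest spread of complex III. Its ratios were 0.24, 0.0083, 0.12 and 0.11 in wild type and ran from -0.34 to 0.37 (median 0.064) in Tgfbr2+/-. The highest value came from the library labelled replicate 4 and the lowest from replicate 5, so the Tgfbr2+/- libraries lay on both sides of all wild-type values. The difference was -0.082 ± 0.11, and -0.0070 without replicate 5. Cyc1, the cytochrome c1 of the same complex, whose symbol lies outside the naming rule, differed by -0.0054 ± 0.066.

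Complex IV reduces oxygen, and several of its nuclear subunits exist as pairs of isoforms used in different tissues. Its 17 genes had a median difference of -0.055, with 13 below 0. The 11 genes other than restricted isoforms had -0.055 with 10 below 0, and the 6 restricted isoforms had -0.0068 with 3 below 0. With wild-type replicate 1 turned, these medians were -0.023 and -0.017. With Tgfbr2+/- replicate 5 turned, they were 0.00014 and 0.032.

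Cox4i1, the liver-expressed form of subunit 4, had ratios of 0.015, -0.040, 0.012 and 0.078 in wild type and ran from -0.23 to 0.13 (median -0.033) in Tgfbr2+/-. The Tgfbr2+/- libraries lay on both sides of the wild-type values, with replicate 5, replicate 6 and the library labelled replicate 4 below them, and the difference was -0.055 ± 0.079. Cox5a, a subunit on the matrix side, had -0.0027, 0.092, -0.066 and -0.18 in wild type and ran from -0.32 to 0.13 (median 0.026) in Tgfbr2+/-, with a difference of 0.012 ± 0.088. Cox5b, the zinc-binding subunit, had 0.062, 0.11, 0.078 and 0.044 in wild type and ran from -0.17 to 0.14 (median 0.025) in Tgfbr2+/-, with a difference of -0.053 ± 0.059. None of these differences exceeded its standard error.

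Cox6c, a small membrane subunit, had the largest negative difference of the broadly expressed complex IV genes, -0.16 ± 0.088, with a limma p of 0.097 and an adjusted p of 0.917. Its ratios were 0.13, -0.022, -0.084 and 0.19 in wild type and ran from -0.34 to 0.091 (median -0.099) in Tgfbr2+/-. The wild-type libraries themselves split into high values in replicates 1 and 4 and values below the pool in replicates 2 and 3. Cox7b and Cox7c, small membrane subunits chosen after their values were seen, showed the same order of wild-type libraries. Cox7c had 0.073, -0.030, -0.11 and 0.11 in wild type and ran from -0.27 to 0.19 (median -0.13) in Tgfbr2+/-, and Cox7b had 0.096, -0.0053, -0.18 and 0.17 and ran from -0.30 to 0.14 (median -0.098).

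The restricted isoforms are known from other tissues: Cox6a2, Cox7a1 and Cox8b from muscle, Cox4i2 from lung, and Cox6b2 and Cox8c from testis. Cox8c had the lowest difference of all 74 genes, -0.23 ± 0.15. Its ratios were 0.058, -0.20, 0.25 and -0.13 in wild type and ran from -0.81 to -0.065 (median -0.13) in Tgfbr2+/-, and it differed by -0.11 without Tgfbr2+/- replicate 5 and by 0.042 with that column turned. Cox6a2 had the highest difference, 0.094 ± 0.048, with a limma p of 0.075 and an adjusted p of 0.917. Its ratios were -0.039, 0.093, 0.014 and -0.093 in wild type and ran from 0.0086 to 0.16 (median 0.077) in Tgfbr2+/-, and the groups overlapped.

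Cox7a1 had -0.10, 0.10, -0.11 and 0.068 in wild type and ran from -0.26 to 0.67 (median 0.0015) in Tgfbr2+/-. Its highest value, in replicate 6, lay far above the others, and its difference was 0.057 ± 0.16. Cox8b had 0.075, 0.072, 0.090 and 0.097 in wild type, the narrowest wild-type range of these isoforms, and ran from -0.18 to 0.083 (median 0.042) in Tgfbr2+/-, with a difference of -0.079 ± 0.054. Cox4i2 and Cox6b2 differed by 0.042 ± 0.060 and -0.055 ± 0.049. Of the 12 muscle and brown fat markers measured, 6 had differences below 0 and none passed an unadjusted limma p under 0.05. Ucp1, the brown fat uncoupling protein, lay between -0.088 and 0.16 over the pool in wild type and between -0.13 and 0.17 in Tgfbr2+/-. Cidea, which is also induced in fatty liver, ran from -3.18 to 0.68 in wild type. In Tgfbr2+/- it ran from -4.40 in replicate 6 to 2.34 in the library labelled replicate 4, and its difference was -0.084 ± 1.26. The part of other tissues in these isoforms was not tested.

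Complex V makes ATP with a rotor, a central stalk and a peripheral stalk that holds the catalytic head. Its 13 genes had a median difference of -0.043, with 11 below 0, and the median was 0.0022 with wild-type replicate 1 turned and 0.013 with Tgfbr2+/- replicate 5 turned. Atp5c1, the gamma subunit of the central stalk, had ratios of -0.045, -0.091, 0.036 and -0.12 in wild type and ran from -0.17 to 0.076 (median -0.11) in Tgfbr2+/-, with a difference of -0.021 ± 0.058. Its 3 probes differed in sign, at -0.088, -0.0019 and 0.027, as did the 2 probes of Atp5j2, the f subunit, at 0.0012 and -0.13.

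In the peripheral stalk, Atp5h, the d subunit, had 0.11, 0.10, 0.042 and 0.093 in wild type and ran from -0.42 to 0.098 (median 0.0032) in Tgfbr2+/-. Replicate 5 lay far below the other libraries, and the difference of -0.13 ± 0.091 became -0.061 without it. Atp5o, the oligomycin sensitivity-conferring protein, had 0.049, 0.14, 0.089 and 0.0076 in wild type and ran from -0.15 to 0.13 (median 0.050) in Tgfbr2+/-, with a difference of -0.043 ± 0.060. The 7 genes of the F1 part and the stalks had a median difference of -0.042.

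Atp5md, a small membrane subunit also known as DAPIT, had the largest negative difference of complex V, -0.17 ± 0.11. Its ratios were 0.27, 0.10, 0.097 and 0.067 in wild type and ran from -0.42 to 0.18 (median -0.0045) in Tgfbr2+/-. Wild-type replicate 1 was the highest library and Tgfbr2+/- replicate 5 the lowest, and the difference was -0.093 without replicate 5, -0.034 with wild-type replicate 1 turned and -0.029 with Tgfbr2+/- replicate 5 turned. The c ring genes Atp5g1 and Atp5g2, which encode the same mature protein, did not share the low values of replicate 5. Their median was 0.040 in replicate 5 and 0.14 in replicate 6, and their median difference was -0.0086.

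Against the pool, which is wild-type liver RNA, no member was called in either group. Over all genes, 0.0122% were called for Tgfbr2+/- and 0.0% for wild type (limma, adjusted p threshold 0.05). At an unadjusted limma p under 0.05, the Tgfbr2+/- libraries had 1 member below the pool (Cox8c) and 3 above it (Ndufa3, Cox6a2 and Cox4i2), against 7.21% and 11.1% of all genes. The wild-type libraries had 0 below and 2 above (Atp5mpl and Ndufa4, which is counted here under complex I by its symbol and is now placed in complex IV), against 2.01% and 2.13%. The fit against the pool leaves out the spread of the pool and any dye bias, and the 2 groups share that pool.

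Other mitochondrial genes were counted in the same fit. Of 18 genes of the tricarboxylic acid cycle 13 had differences below 0, with a median of -0.068. The lowest p there belonged to Dlst, the succinyl transferase of the 2-oxoglutarate dehydrogenase complex, at -0.17 ± 0.074, and Idh3g, a subunit of the NAD-dependent isocitrate dehydrogenase, at -0.15 ± 0.071. Of 19 genes of mobile carriers and other dehydrogenases that feed ubiquinone, 13 were below 0, with a median of -0.051. The smallest p in that list belonged to Gpd2, the mitochondrial glycerol-3-phosphate dehydrogenase, at -0.31 ± 0.11, and Coq10b, a coenzyme Q-binding protein, at 0.22 ± 0.092. With wild-type replicate 1 turned the medians of these lists were -0.054 and -0.020, and with Tgfbr2+/- replicate 5 turned -0.030 and -0.0049. None of these genes passed the adjusted threshold.

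Of 20 regulators of mitochondrial biogenesis 16 had differences below 0, with a median of -0.096. This median was -0.031 with wild-type replicate 1 turned and -0.049 with Tgfbr2+/- replicate 5 turned. The coactivator gene Pprc1 differed by -0.28 ± 0.083, with a limma p of 0.0068 and an adjusted p of 0.693. Ppara, the nuclear receptor of fatty acid oxidation, differed by 0.18 ± 0.059, with a limma p of 0.011 and an adjusted p of 0.732. Ppargc1a, the coactivator best known for driving mitochondrial genes, differed by -0.36 ± 0.20 and ran from -0.037 to 0.49 in wild type and from -0.76 to 0.32 in Tgfbr2+/-. For the factors whose sites were searched in the promoters, the differences were -0.028 ± 0.045 for Nrf1, 0.0033 ± 0.055 for Gabpa, -0.11 ± 0.087 for Yy1 and -0.028 ± 0.10 for Esrra.

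Assembly factors build the complexes without being part of them, and their list also held Atpif1, which is not an assembly factor. Of its 39 genes 19 had differences below 0, with a median of 0.0033. Sco1, a copper chaperone of complex IV, differed by -0.12 ± 0.049, and Atpif1, the inhibitor of complex V, by 0.14 ± 0.067. Of 74 mitochondrial ribosomal proteins 38 were below 0, with a median of -0.0085 and the smallest p for Mrps18a (0.12 ± 0.055) and Mrpl28 (0.10 ± 0.051). Among 55 cytosolic ribosomal proteins 38 were below 0, with a median of -0.020 and the smallest p for Rps6 (0.12 ± 0.060) and Rpl26 (-0.32 ± 0.18). Among 36 proteasome subunits 21 were below 0, with a median of -0.019 and the smallest p for Psmb10 (0.30 ± 0.089) and Psmd9 (-0.19 ± 0.11). In that order, the 4 list medians were 0.011, 0.019, -0.026 and -0.020 with wild-type replicate 1 turned. With Tgfbr2+/- replicate 5 turned they were 0.0038, 0.0083, -0.0095 and 0.017. The difference between the subunits and these lists was not tested. In Tgfbr2+/- replicate 5 the list medians were -0.051 for mitochondrial and -0.049 for cytosolic ribosomal proteins, beside -0.17 for the oxidative phosphorylation genes. In replicate 6 they were -0.039 and -0.088, beside -0.055.

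**Figure D5:**
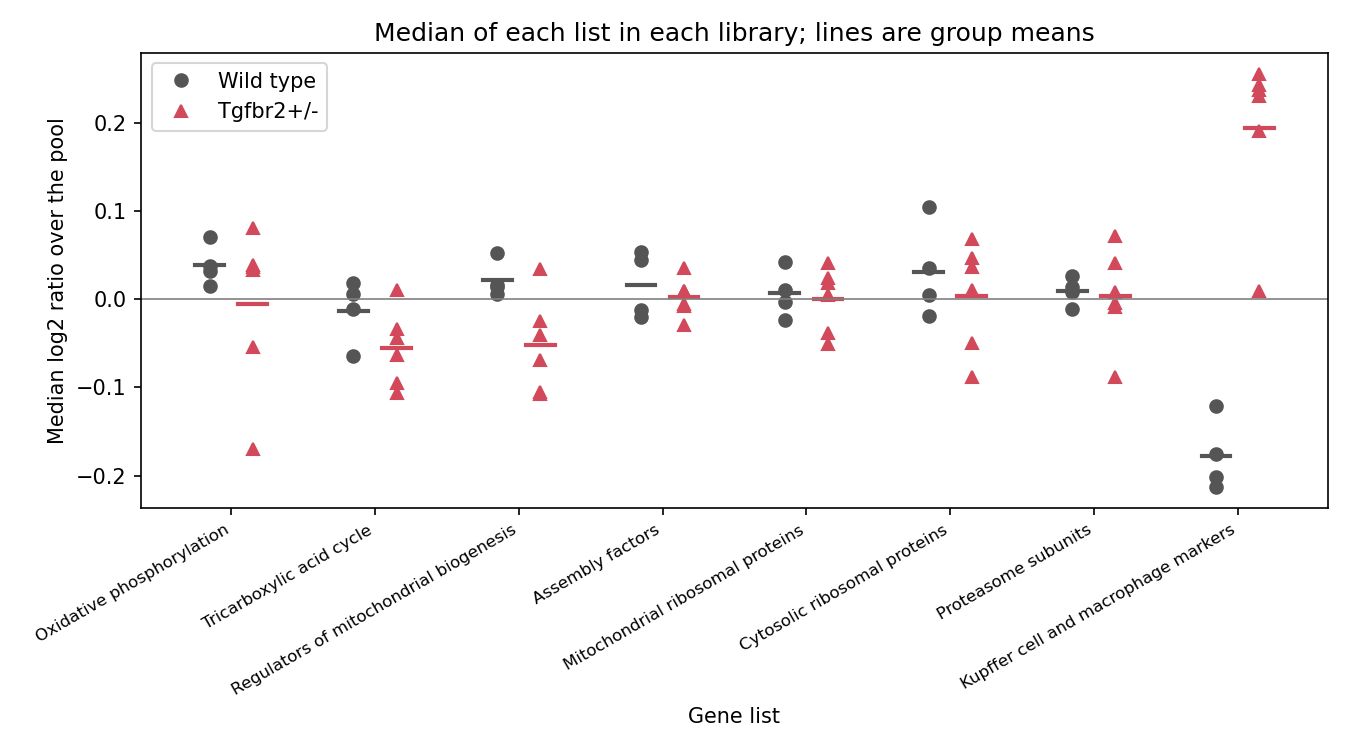
Median log2 ratio over the pool (y axis) of each gene list (x axis) in each library, with wild type as circles, Tgfbr2+/- as triangles and group means as lines. The oxidative phosphorylation medians run from 0.015 to 0.070 in wild type and from -0.17 to 0.080 in Tgfbr2+/-. The medians of the Kupffer cell and macrophage markers do not overlap between the groups, though single markers of that list do.

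Markers of other liver cells were read from the same fit. Of 14 Kupffer cell and macrophage markers 12 had differences above 0, with a median of 0.41, and in 8 of them all Tgfbr2+/- libraries lay above all wild-type libraries, against 0.726% of all genes. No marker passed the adjusted threshold, and the smallest p belonged to Cd5l, a secreted macrophage protein, at 0.67 ± 0.097, with an adjusted limma p of 0.115. Vsig4, a complement receptor of Kupffer cells, differed by 0.48 ± 0.075. The markers below 0 were Marco, at -0.17 ± 0.37, and Cd163, at -0.053 ± 0.22. The list's summed log2 ratio ran from -3.04 to -1.58 in wild type and from -0.35 to 3.58 in Tgfbr2+/-. Its median was 0.19 in Tgfbr2+/- replicate 5, within the 0.0093 to 0.26 of the other Tgfbr2+/- libraries. The median difference of the list with either column turned was 0.27 or 0.31. The part of these cells in the subunit differences was not tested.

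Of 12 hepatocyte markers 4 had differences below 0, with a median of 0.038, and the summed log2 ratio of the list ran from -1.79 to 0.049 in wild type and from -1.52 to 0.34 in Tgfbr2+/-. Turning wild-type replicate 1 or Tgfbr2+/- replicate 5 gave medians of 0.043 and 0.046. Arg1, the arginase of the urea cycle, differed by -0.24 ± 0.10, and Hpx, the haem scavenger hemopexin, by 0.36 ± 0.15. Of 5 erythroid markers 4 were below 0, with a median of -0.014; Alas2, of haem synthesis in red cells, differed by 0.15 ± 0.046 and the alpha-globin Hba-a1 by -0.14 ± 0.12. Among the muscle markers, the smallest p belonged to Mb (myoglobin), at -0.090 ± 0.054, and Tnni2 (a fast troponin), at -0.059 ± 0.056.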

How the data were processed

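Liver RNA of 6 Tgfbr2+/- and 4 wild-type mice was measured on 2-colour arrays, 1 deposited column per mouse, with groups and replicate numbers read from the sample titles. The deposited log10 ratios, per the labels of pool and sample, are centred near 0 (column medians 0.0013 to 0.0047), and the base was inferred from 8 values at exactly 2 or -2. Direction is likely, not stated. The design text mentions dye swaps, while normalization and scanner software were not given in the sources used here. These log10 values were multiplied by 3.32 to log2 and averaged per symbol. Of 23438 probes, 17726 had 1 symbol, 50 several and 5662 were unnamed. No value was missing.

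Differences were fitted over all 16383 genes with limma 3.58.1 in R 4.3.3 (lmFit, eBayes, two-sided, Benjamini-Hochberg adjustment, threshold 0.05). Single genes also had an exact two-sided permutation test over 210 splits. The script was tested on simulated data. The genes, lists and alternatives were chosen with earlier results of these data known. Named genes are the 3 of smallest p per complex, a fixed list of core and other subunits, and restricted isoforms. They also include the highest and lowest differences and the 2 of smallest p in each other list, with exceptions marked. Replicates were taken throughout as separate mice, since the titles number them but do not state this. Alternatives covered signs, centring, scaling, moderation, weights, probes, members, the replicate block and each left-out library.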

Additional observations from a re-analysis of the deposited data

Results flagged for a closer look

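In 7 of the 64 groups of values examined for the named genes and list medians, a library lay apart from the rest of its group by Dixon's criterion, which chance alone meets in about 1 in 20 groups. Tgfbr2+/- replicate 5 was the low library in 5 of them. It stood at -0.3731 for Ndufa2, where the other Tgfbr2+/- libraries ran from -0.0817 to 0.0874, and at -0.4083 for Ndufa6, where they ran from -0.0718 to 0.1272. For Cox8c it stood at -0.8122, against -0.1834 to -0.0651, for Atp5h at -0.4196, against -0.0535 to 0.098, and for Ndufa9 at -0.1242, against -0.0199 to 0.0419. Wild-type replicate 1 stood at 0.2727 for Atp5md, above the 0.0674 to 0.0997 of the other wild-type libraries. Wild-type replicate 2 stood at -0.0458 for Ndufa9, below their 0.0306 to 0.0438.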

How the results depend on the processing

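No member passed the adjusted threshold under any alternative fitted, and the lowest adjusted limma p of the 26 named oxidative phosphorylation genes in them was 0.5062. Of these 26 genes, 12 kept the sign of their difference in all 17 alternatives. Over all genes, 10 were called without Tgfbr2+/- replicate 3 and 0 with all libraries; the cause was not tested. With each library left out in turn, the median difference of the members ran from -0.0643 to -0.0167 and the number below 0 from 52 to 62. With the sign of Tgfbr2+/- replicate 5 turned, 29 members were below 0 and the complex III median was 0.0306; the cause of the low values in that library was not tested. The titles do not say whether equal replicate numbers share anything, and a pairing by number was not excluded. Deviations of same-numbered mice correlated at 0.0072 to 0.3024, against -0.2213 to 0.1049 for other numbers. Of the 4 wild-type libraries, 2 correlated best with their own number. With the replicate number as a block, 41 members were below 0, the median was -0.0034 and 0 genes were called. That fit drops Tgfbr2+/- replicates 5 and 6 by construction, since no wild-type library shares their numbers, and leaving out both, an alternative added after seeing the data, also gave 41. Centring, scaling, moderation, array weights, the fit by probe and leaving out restricted isoforms moved no count of members below 0 by over 1.5 times.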
